A study of Mus musculus with 5 samples.

Results

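Rest and 8 genes for proteins that work with its product were followed in 5 libraries of mouse embryonic neural tubes. The members were chosen by name as the repressor gene Rest itself, the CoREST scaffold genes Rcor1, Rcor2 and Rcor3, the SIN3 scaffold genes Sin3a and Sin3b, the histone deacetylase genes Hdac1 and Hdac2, and the small phosphatase gene Ctdsp1. All 9 symbols were among the 23284 genes counted, and all 9 were expressed highly enough to be tested, with a CPM (a gene's read count scaled to a common library size, with TMM scaling between libraries) above 1 in at least 2 samples.

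The study asked how erythropoietin signaling acts on gene regulation in neural cells, and the neural tubes addressed what happens when the receptor is missing. The 2 EpoR-null samples carried EpoR -/-, a germline deletion of the erythropoietin receptor gene, so the receptor was missing from every tissue and not from neural cells alone. The controls were littermates from matings of heterozygous mice, 2 wild type samples (EpoR +/+) and 1 heterozygote (EpoR +/-), and all embryos were untreated and collected at E8.5 by the labels or E9.0 by the study's methods. Neural tubes were isolated by manual and enzymatic dissection, polyA RNA was sequenced, and no sources used here say whether each library is a single embryo or a pool. Each p-value below therefore measures the spread between these 5 libraries, with the heterozygote counted as a control.

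REST is a zinc finger protein that binds a DNA element called RE1 near many neuronal genes and silences them in progenitors and in cells outside the nervous system. One end of REST binds the SIN3 scaffolds and the other the CoREST scaffolds, and both scaffolds bring in HDAC1 and HDAC2, which take acetyl groups off histones. CTDSP1 removes phosphate groups from REST and thereby protects it from degradation. In the neural tube, REST protein falls as progenitors become neurons, and its target genes are then released.

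The RE1 element has a left and a right arm, spelled here TCAGCACC and GGACAGCG, which in the usual site are separated by 2 bases. The letters were searched on both strands in the RefSeq promoters of GRCm38.p6, windows of 300 bases that include 250 bases before each start site. A whole element with at least 14 of the 16 letters was found in 31 of 32851 windows, 0.0944% of them. No such match was in the windows of the 7 members with an entry (Rcor1, Rcor2, Rcor3, Sin3a, Sin3b, Hdac2 and Ctdsp1). Among the 30 genes of a list of neuronal genes known for RE1 elements, 18 had an entry, and 3 had a match. Most genes known for the element thus had no match in these windows, so the lack of one in the members says little. These 3 matches are printed to show what the element looks like, 5′ to 3′ along the strand that has the left arm first, with capitals for the letters of both arms that match.
Gria2, chr3:80802986-80803011, plus strand: gattTtAGCACCgcGGACAGCGcttt
Celsr3, chr9:108825915-108825940, plus strand: ccgtTCAGCACCgtGGgCAGCacttc
Rph3a, chr5:121009611-121009636, plus strand: gcagTCAGtACCacGGACAGCaccag
Gria2, an AMPA receptor subunit gene, matched 15 of the 16 letters, and Celsr3 (a cadherin of axon tracts) and Rph3a (a synaptic vesicle protein) matched 14 each.
A single exact arm was more common, in 2.87% of all windows (1.65% for the left arm and 1.26% for the right), and Rcor2 was the only one of the 7 with one, the right arm in capitals.
Rcor2, chr19:7267315-7267344, plus strand: ccccgtgggagGGACAGCGggcgggggctt
Such a match is a description of the letters and not of a bound site.

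Libraries held 19316126 to 41169218 reads counted on genes, so 3 reads of a gene corresponded to 0.0729 to 0.155 CPM. Epor itself had 57 and 68 reads in the wild type libraries, 7 and 19 in the EpoR-null libraries and 11 in the library labelled heterozygote. Its level there, 0.476 CPM, lay between the EpoR-null values of 0.354 and 0.669 CPM, and below the wild type values of 2.36 and 1.62 CPM. Epor did not pass the test with that library among the controls (log2 fold change -1.51 ± 0.76, SE, FDR = 0.28 by the exact test of edgeR) or without it (-1.91, FDR = 0.0528). The library labelled heterozygote also stood apart in markers of blood, vessel, mesoderm and neural crest cells. The summed CPM of 8 primitive erythroid markers was 44.2 in it and 603.4 to 1693 in the other 4 libraries, and that of 7 endothelial markers was 12.4 against 142.6 to 296.8. For 8 markers of paraxial mesoderm and mesenchyme it was 10.8 against 43.8 to 137.7, and for 5 of neural crest 34.8 against 102.4 to 159.2. One erythroid marker, Hba-a1, was at 0 in every library. Neural progenitor markers, 8 genes such as Sox2 and Pax6, were present in all 5 libraries, with summed CPM of 1442 to 1908. Of these, 1 was called lower in the EpoR-null samples, Msi1, an RNA-binding protein gene of progenitors (log2 fold change -0.51, FDR = 0.00712 by the exact test of edgeR). Over all genes tested, 3.84% were called lower. The call of Msi1 was lost with the quasi-likelihood F-test described below (FDR = 0.0662), and when any 1 control was left out of the exact test. With a control left out, the FDR of Msi1 was 0.142 without wild type replicate 1, 0.136 without wild type replicate 2 and 0.095 without the library labelled heterozygote. Without the library labelled heterozygote, the values of Rest and Rcor1 are given below. In the other 7 members the fold changes then ran from -0.67 (Rcor3) to 0.33 (Sin3b), each with the sign it had with that library and none called.

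Rest was the member with the greatest difference. It lies on the plus strand at chr5:77265491-77286432 (GENCODE annotation of GRCm38, as are the other gene positions below). Its level was 29.2 and 25.9 CPM in the wild type samples, 26.7 CPM in the library labelled heterozygote, and 11 and 7.40 CPM in the EpoR-null samples. Both EpoR-null samples were far below all 3 controls, whose values lay close together. Controls averaged 27.3 ± 1.72 CPM (SD, n = 3), which was 2.97-fold the EpoR-null mean of 9.20 ± 2.56 CPM (SD, n = 2). The log2 fold change was -1.57 ± 0.26 (SE, FDR = 4.26e-06 by the exact test of edgeR), with a 95% interval of -2.08 to -1.06, and 0.417% of the genes tested had a lower one. Without the library labelled heterozygote it was -1.59 (FDR = 6.95e-04). A stricter test of edgeR, the quasi-likelihood F-test, allows for the uncertainty in each gene's own spread. It gave the same change, -1.57, with FDR = 0.059 for Rest, and called 0 of the 12703 genes, 3052 of which had an unadjusted p under 0.05. Because these are bulk samples, fewer cells that express a gene and less of its RNA per cell cannot be told apart.

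Of the 9 members, 2 were called, Rest and Rcor1, both lower in the EpoR-null samples, and 0 were called higher. A call here needs p under 0.001 and FDR under 0.05, the thresholds of the study's methods. Across all 12703 genes tested, 3.84% were called lower (488 genes) and 0.929% higher (118 genes). With the FDR threshold alone the members called were the same 2, against 5.49% of all genes lower and 1.81% higher. By rank alone, 4 members (Rest, Rcor1, Rcor3 and Sin3a) had both EpoR-null values below all controls and 2 (Sin3b and Hdac2) had both above, while for Rcor2, Hdac1 and Ctdsp1 the groups overlapped. Such separation was common, with 22.1% of all genes lying below and 21.2% above in the same way.

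**Figure D1:**
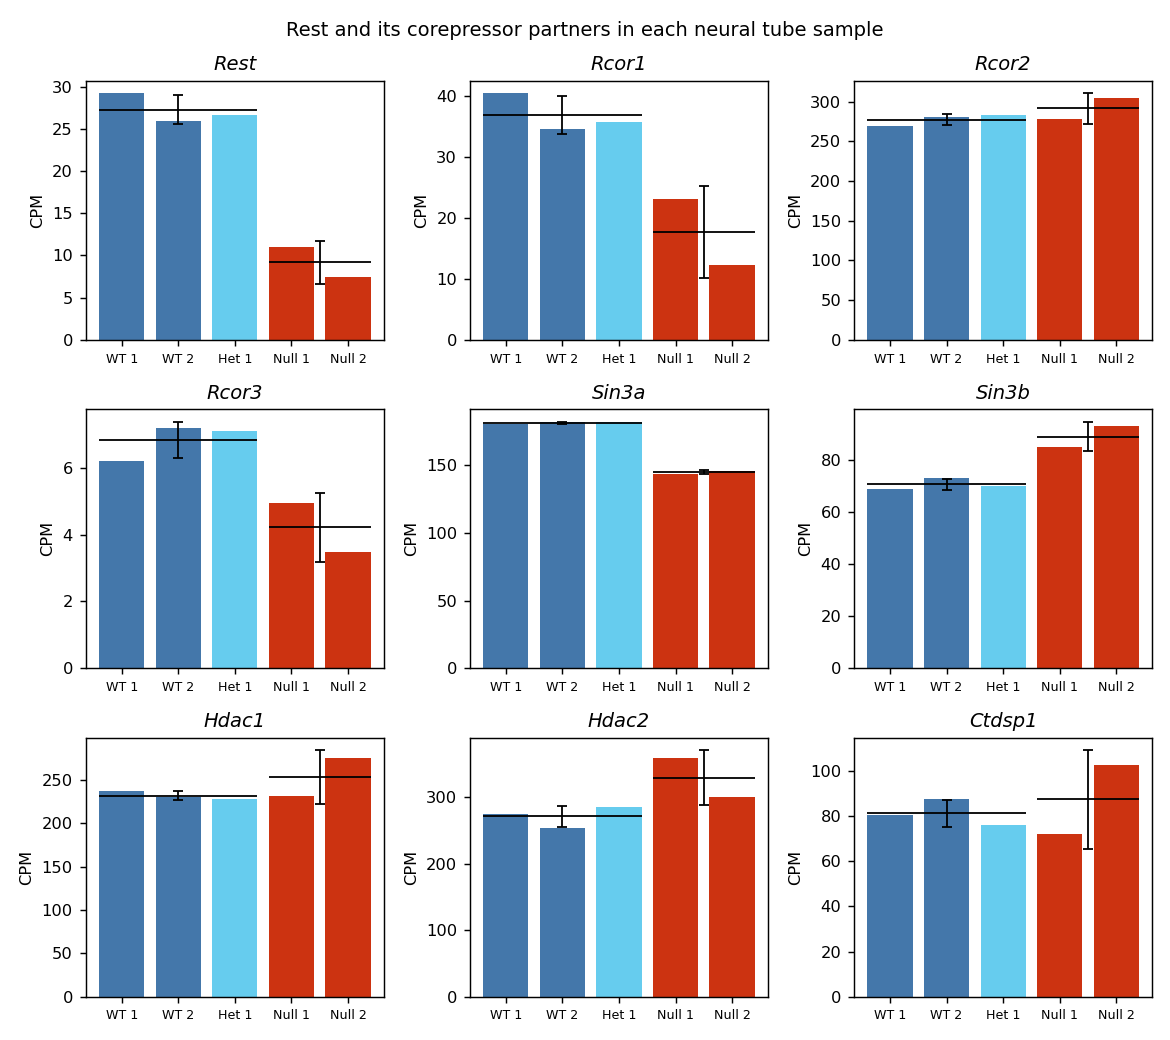
CPM of each of the 9 genes (vertical axes from 0, a scale for each gene) in the wild type (WT, dark blue), heterozygote (Het, light blue) and EpoR-null (Null, red) samples, 1 bar a sample. Horizontal lines are the means of the 3 controls and the 2 EpoR-null samples, and error bars are their SD. Rest was 25.9 to 29.2 CPM in controls and 7.40 and 11 CPM in EpoR-null samples, whereas Rcor2 stayed between 268.9 and 304.7 CPM in all 5.

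Among the CoREST scaffolds, which join REST to the demethylase LSD1 and to HDAC1 and HDAC2, 1 of 3 genes, Rcor1, passed the test. Rcor1 lies at chr12:111039351-111115901, Rcor2 at chr19:7267325-7275225 and Rcor3 at chr1:192098546-192138062. Rcor1, the founding CoREST gene, was 40.4 and 34.6 CPM in the wild type samples, 35.6 CPM in the library labelled heterozygote, and 23.0 and 12.3 CPM in the EpoR-null samples. Both EpoR-null values were below every control, but they differed from each other by more than the controls did. The control mean of 36.9 ± 3.08 CPM (SD, n = 3) was 2.09-fold the EpoR-null mean, 17.7 ± 7.57 CPM (SD, n = 2). The log2 fold change was -1.06 ± 0.31 (SE, FDR = 0.020 by the exact test of edgeR), and p = 9.32e-04 by that test lay close to the limit of 0.001. The call was lost when any 1 control was left out, with FDR = 0.311 without wild type replicate 1, 0.117 without wild type replicate 2 and 0.125 without the library labelled heterozygote. The fold change kept its sign in each of these, from -1.11 to -0.99, and it was -1.58 without EpoR-null replicate 1 and -0.68 without EpoR-null replicate 2.

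Rcor2, the CoREST gene best known from pluripotent and neural progenitor cells, was 268.9, 280.4 and 282.8 CPM in the controls and 277.8 and 304.7 CPM in the EpoR-null samples. The groups overlapped, and the log2 fold change was 0.07 ± 0.14 (SE, FDR = 0.829 by the exact test of edgeR), with a 95% interval of -0.20 to 0.34. The interval does not reach the fold change of Rest or Rcor1.

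Rcor3, the least abundant scaffold gene, was 6.20, 7.19 and 7.09 CPM in the controls and 4.95 and 3.49 CPM in the EpoR-null samples, all EpoR-null values below all controls. Its log2 fold change of -0.70 ± 0.34 (SE) did not pass the test (FDR = 0.241 by the exact test of edgeR). Rcor3 shares 336 exonic bases with Gm10516, an antisense gene that was counted too, and without a stated strand setting the reads of overlapping genes cannot be assigned with certainty.

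Per kilobase of the longest transcript, Rcor2 was the leading CoREST RNA by a wide margin in every sample. In controls its level was 98.3 ± 2.62 CPM per kb, against 6.49 ± 0.54 CPM per kb for Rcor1 and 1.80 ± 0.14 CPM per kb for Rcor3 (SD, n = 3 each). In EpoR-null samples the levels were 103.2 ± 6.75, 3.11 ± 1.33 and 1.11 ± 0.27 CPM per kb (SD, n = 2 each). Counted as shares of all reads on the 3 genes, Rcor1 made up 12.8%, 10.7% and 10.9% in the controls, and 7.53% and 3.85% in the EpoR-null samples. The exact binomial 95% intervals of the EpoR-null shares were 6.88% to 8.23% and 3.46% to 4.26%, and the lowest bound of a control was 10.2% (intervals cover counting error only, and sequenced reads are not independent molecules). The share of Rcor2 was 85.2% to 87.0% in controls and 90.9% and 95.1% in the EpoR-null samples. The log2 ratio of Rcor2 to Rcor1 was 1.20 higher in the EpoR-null samples, with no overlap of the groups. It was 1.71 higher without EpoR-null replicate 1 and 0.68 higher without EpoR-null replicate 2.

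The SIN3 scaffolds, the other arm through which REST recruits deacetylases, differed in opposite directions without either passing the test. Their genes lie at chr9:57072040-57128366 (Sin3a) and chr8:72723285-72758201 (Sin3b). Sin3a was 180.1, 181.5 and 181.6 CPM in the controls and 143.6 and 145.6 CPM in the EpoR-null samples. The values within each group were nearly the same and the groups lay well apart. The log2 fold change was -0.32 ± 0.13 (SE, FDR = 0.107 by the exact test of edgeR). Sin3b was 68.9, 73.2 and 70.3 CPM in the controls and 85.1 and 93.2 CPM in the EpoR-null samples, which were both higher than all controls. Its log2 fold change was 0.33 ± 0.13 (SE, FDR = 0.109 by the exact test of edgeR). Sin3a shares 205 exonic bases with the antisense gene Man2c1os, which was not among the genes counted.

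Because both genes are read in the same library, their ratio does not depend on how libraries are scaled. The log2 ratio of Sin3b to Sin3a was -1.36 ± 0.04 in controls (SD, n = 3) and -0.70 ± 0.08 in EpoR-null samples (SD, n = 2), a difference of 0.66. The share of Sin3b among reads on the pair was 27.7%, 28.7% and 27.9% in the controls and 37.2% and 39.0% in the EpoR-null samples. The groups did not overlap, and the exact permutation test gave p = 0.1, the smallest that 2 samples against 3 allow, so no ratio can reach the usual threshold in this design.

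**Figure D2:**
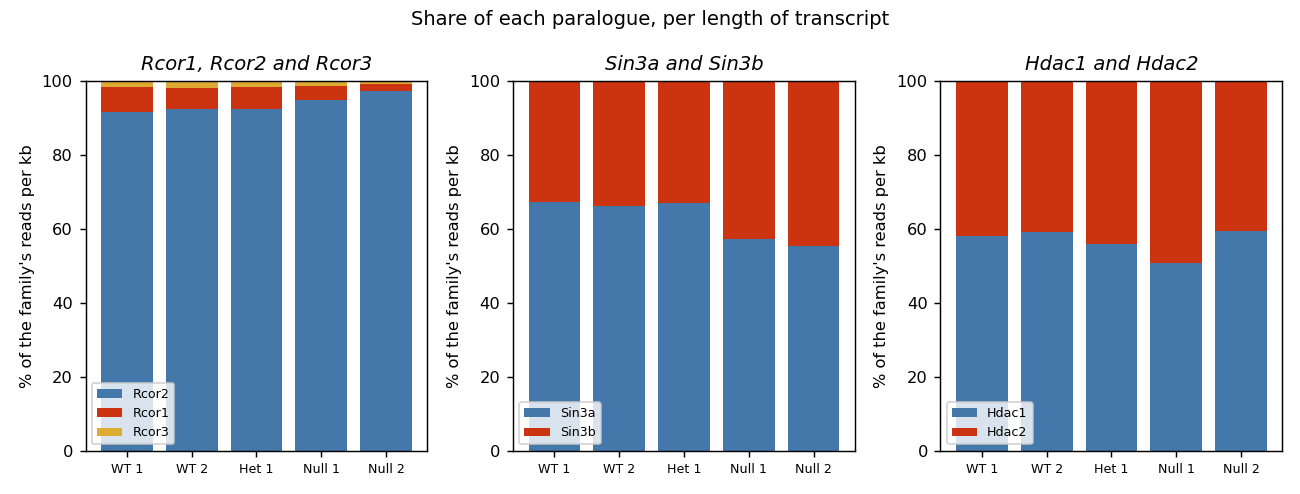
Share (%, vertical axes from 0 to 100) of each paralogue among the CPM per kilobase of its family, in the wild type (WT), heterozygote (Het) and EpoR-null (Null) samples, 1 bar a sample. Rcor2 made up 91.6% to 92.6% of its family in controls and 94.8% and 97.2% in EpoR-null samples, Sin3b 32.6% to 33.8% and 42.8% and 44.7%, and Hdac2 40.9% to 44.0% and 49.3% and 40.6%.

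The deacetylase genes were the most abundant members next to Rcor2. They lie at chr4:129516104-129542713 (Hdac1) and chr10:36974544-37001889 (Hdac2). Hdac1 was 237.7, 230.1 and 227.9 CPM in the controls and 231.4 and 275.2 CPM in the EpoR-null samples, so the groups overlapped. Its log2 fold change was 0.13 ± 0.15 (SE, FDR = 0.682 by the exact test of edgeR), and RefSeq lists a pseudogene of it, Hdac1-ps, which was not among the genes counted. Whether reads of the pair were told apart was not tested, so the counts of Hdac1 are uncertain. Hdac2 was 274.2, 254.3 and 285.5 CPM in the controls and 358.5 and 299.8 CPM in the EpoR-null samples, both above all controls. Its log2 fold change of 0.28 ± 0.16 (SE) did not pass the test (FDR = 0.313 by the exact test of edgeR). The share of Hdac2 among reads on the pair was 60.8% in EpoR-null replicate 1 and 52.1% in EpoR-null replicate 2, on either side of the controls (52.5% to 55.6%).

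Ctdsp1, the phosphatase that stabilizes REST protein, is encoded at chr1:74391509-74397285 and was 80.4, 87.6 and 75.9 CPM in the controls. Its EpoR-null values, 71.9 and 102.7 CPM, were the lowest and the highest of all 5. The log2 fold change was 0.10 ± 0.20 (SE, FDR = 0.823 by the exact test of edgeR), with a 95% interval of -0.28 to 0.49.

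In the order of levels per kilobase, controls ran from Hdac1 (113.8 ± 2.53 CPM per kb) through Rcor2 (98.3), Hdac2 (83.5 ± 4.86), Sin3a (34.8 ± 0.16), Ctdsp1 (27.5 ± 2.0), Sin3b (17.2 ± 0.53) and Rcor1 (6.49) to Rest (3.89 ± 0.25) and Rcor3 (1.80), with SD over the 3 controls. No neighbours in this order overlapped in their control values. Over all annotated exons instead of the longest transcript, Rcor2 came first (87.9 CPM per kb), then Hdac1 (67.3) and Hdac2 (60.7), so the order of the leading 3 depends on the transcript model. In EpoR-null samples the levels of Rcor2 (98.4 and 107.9 CPM per kb) and Hdac2 (110.3 and 92.3 CPM per kb) overlapped. Rest stood at 1.57 and 1.06 CPM per kb there, next to Rcor3 with 1.31 and 0.92 CPM per kb, and these also overlapped. This overlap is given for the longest transcript alone, and the level of Rcor3 depends on the transcript model too. Over all annotated exons, controls had 0.50 CPM per kb for Rcor3 and 3.78 CPM per kb for Rest.

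Set against its partners within each library, Rest was lower in the EpoR-null samples relative to all 8. The log2 ratio of Rest to a partner changed by -1.93 for Sin3b, -1.87 for Hdac2, -1.72 for Hdac1, -1.68 for Ctdsp1, -1.66 for Rcor2, -1.27 for Sin3a, -0.88 for Rcor3 and -0.47 for Rcor1. Both EpoR-null values lay below all controls for each of these 8 ratios. The changes depended on single EpoR-null libraries. Ctdsp1 had the widest range, with -2.22 without EpoR-null replicate 1 and -1.13 without EpoR-null replicate 2. For the smallest change, that of Rcor1, the values were -0.30 without EpoR-null replicate 1 and -0.63 without EpoR-null replicate 2. Without the library labelled heterozygote the 8 changes were -1.93 to -0.46. Over the 12 ratios computed, the exact permutation p was 0.1 for 10 of them (0.12 after Benjamini-Hochberg adjustment), 0.2 for Rcor3 to Rcor1 and 0.7 for Hdac2 to Hdac1. The 8 ratios share the same Rest counts and are not independent of each other. Only 0.417% of the genes tested had a lower fold change than Rest. A lower ratio of Rest to most genes therefore follows from Rest itself, and the 8 ratios say little about these partners. Such ratios to genes outside the members were not computed.

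Transcript length moved with the fold change over the whole table. With the tested genes split into 5 classes of about equal size by the length of the longest transcript, from the shortest to the longest class the median log2 fold change went from 0.37 through 0.16, 0.04 and -0.11 to -0.36, and the share called lower from 0.198% to 16%. Rest (7004 bases) and Rcor1 (5684 bases) are both in the longest class, and Sin3a (5206 bases) and Sin3b (4115 bases) are both in the one below it. Hdac1 (2038 bases) is in the shortest class, and Rcor2 (2823 bases) and Ctdsp1 (2957 bases) are in the next. Scaling cancels in the ratios given above, but a trend on length does not. The ratios were taken without a correction for length and were not computed with one. With each sample's trend on length and GC content taken out by offsets, Rest had a log2 fold change of -1.23 (FDR = 3.47e-06 by the likelihood-ratio test of edgeR) and Rcor1 one of -0.86 (FDR = 0.027), and both were still called. In the same fit Sin3a had -0.13 and Sin3b 0.32, closer together than in the main test (-0.32 and 0.33), and neither passed the test. Rest also lay closer to each of its partners in that fit than in the main test, while still below them. Rcor2 (-0.12), Hdac1 (-0.10) and Ctdsp1 (-0.05) changed sign there against the main test (0.07, 0.13 and 0.10) and were not called in either. Rcor3 and Hdac2 kept their signs and were not called.

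**Figure D3:**
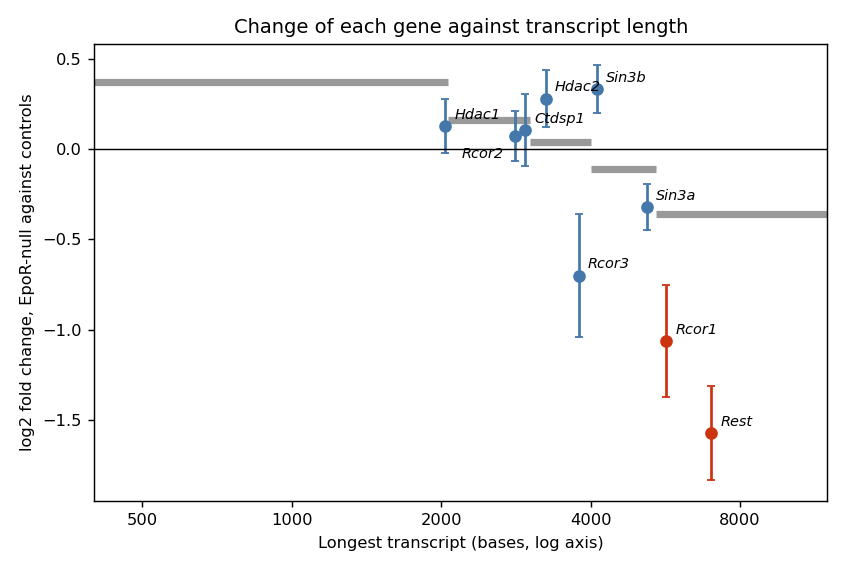
Log2 fold change, EpoR-null against controls (vertical axis), of each of the 9 genes against the length of its longest transcript (bases, log axis), with bars of 1 SE and genes that passed both thresholds in red. Grey bars are the medians of all genes in each of 5 classes of transcript length, 0.37 in the shortest and -0.36 in the longest (both outer bars run on past the axis), and Rest (-1.57) and Rcor1 (-1.06) lie below the bar of their class.

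Partners beyond the 9 members were counted on 5 lists made from general knowledge. Over all genes tested, 3.84% were called lower and 0.929% higher, so a count of 0 in a list this short says little. For the CoREST complex beyond its scaffolds, 9 of 9 genes were tested and 0 were called by the exact test of edgeR, with a median log2 fold change of -0.11 against 0.06 over all genes tested. Its most abundant genes were Ctbp1, a corepressor that binds NADH (controls 337.3 ± 16.9 CPM, EpoR-null samples 356.1 ± 23.8 CPM), and Kdm1a, the LSD1 demethylase (223.2 ± 10.1 and 232.4 ± 10 CPM; SD, n = 3 and 2). For both, the groups overlapped. For the SIN3 complex, 17 of 17 genes were tested, 0 were called and the median was 0.00. Its most abundant genes were the histone chaperones Rbbp4 (647.9 ± 3.74 and 751.4 ± 75.6 CPM) and Rbbp7 (370.5 ± 6.76 and 400.5 ± 70.5 CPM). Rbbp4 was higher in both EpoR-null samples than in any control and did not pass the test (log2 fold change 0.21, FDR = 0.42 by the exact test of edgeR).

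Other chromatin enzymes that REST brings in had a median of -0.21 over 10 tested genes, with 0 called. Of all genes tested, 3.84% were called lower and 0.929% higher. Smarca4, the motor of the SWI/SNF remodeler, was 542.2 ± 26.7 CPM in controls and 434.5 ± 17.1 CPM in EpoR-null samples, which lay below all controls (log2 fold change -0.32 ± 0.14, SE, FDR = 0.159 by the exact test of edgeR). Ehmt2, the H3K9 methyltransferase G9a, was 247.2 ± 8.48 and 243.3 ± 22.1 CPM, and its groups overlapped.

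Of 16 genes that act on REST protein or on the splicing of its RNA, 1 was called and it was lower, where 3.84% of all genes tested were called lower. This was Huwe1, a very large ubiquitin ligase. It was 487.0, 460.7 and 505.8 CPM in the controls and 277.3 and 286.6 CPM in the EpoR-null samples, with no overlap and a narrow spread in each group. Its log2 fold change was -0.78 ± 0.14 (SE, FDR = 8.32e-06 by the exact test of edgeR). Its longest transcript has 14579 bases, in the class of which 16% were called lower. With the trend on length and GC content taken out, its log2 fold change was -0.14 and it was not called by the likelihood-ratio test of edgeR (unadjusted p = 0.534). The median of the 16 genes was -0.06.

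Neuronal genes known for RE1 elements gave a different picture in each EpoR-null sample. Of 30 listed genes 24 were tested, 0 were called in either direction, and their median log2 fold change was 0.51 against 0.06 over all genes tested. The shares called over all genes tested were 3.84% lower and 0.929% higher. In EpoR-null replicate 1, 22 of the 24 (91.7%) were above all controls and 0 below. In EpoR-null replicate 2, 4 (16.7%) were above all controls and 17 (70.8%) below. Over all genes tested, 39.0% were above all controls and 37.6% below in replicate 1, and 41.8% above and 39.4% below in replicate 2.

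Tubb3, the neuronal β-tubulin, and Nefm, a neurofilament subunit, were the most abundant of these genes. Tubb3 was 157.1, 132.6 and 186.5 CPM in the controls, 454.4 CPM in EpoR-null replicate 1 and 104.2 CPM in EpoR-null replicate 2. Nefm was 57.2, 34.2 and 76.5 CPM in the controls, and 227.3 and 17.8 CPM in the EpoR-null samples. For each gene, 1 EpoR-null sample was above and the other below all controls, so the mean change (log2 fold changes of 0.82 and 1.13) describes neither. The summed CPM of 8 markers of newborn neurons, which include Tubb3, ran the same way. It was 331.2 to 537.7 in controls, 1009 in EpoR-null replicate 1, of which Tubb3 gave 454.4, and 249.4 in EpoR-null replicate 2. Neurog2 alone did not run this way, with EpoR-null values of 52.1 and 50.2 CPM inside the controls (42.1 to 68.9 CPM). The part of these markers in the RE1 genes was not tested. Rest itself was low in both EpoR-null samples and was lower in replicate 2.

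The genes with a printed RE1 site were expressed at low to moderate levels. Celsr3 was 25.8, 21.4 and 30.1 CPM in the controls, and 34.5 and 11.9 CPM in the EpoR-null samples. Gria2 was 1.57, 0.43 and 1.12 CPM in the controls, and 2.63 and 0.28 CPM in the EpoR-null samples, with 8 reads in EpoR-null replicate 2. In both genes EpoR-null replicate 1 was the highest and replicate 2 the lowest of all 5 samples. Rph3a, with 1 to 5 reads in each library, was too low to be tested. Of the 24 tested genes 3, Stx1a, Cplx1 and Kcnh2, were above all controls in both EpoR-null samples, as were 21.2% of all genes tested, and these 3 are named after their values were seen. Stx1a, a syntaxin of synaptic vesicle fusion, was 8.97, 11.2 and 8.34 CPM in the controls, and 13.7 and 12.5 CPM in the EpoR-null samples (log2 fold change 0.46, FDR = 0.367 by the exact test of edgeR).

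**Figure D4:**
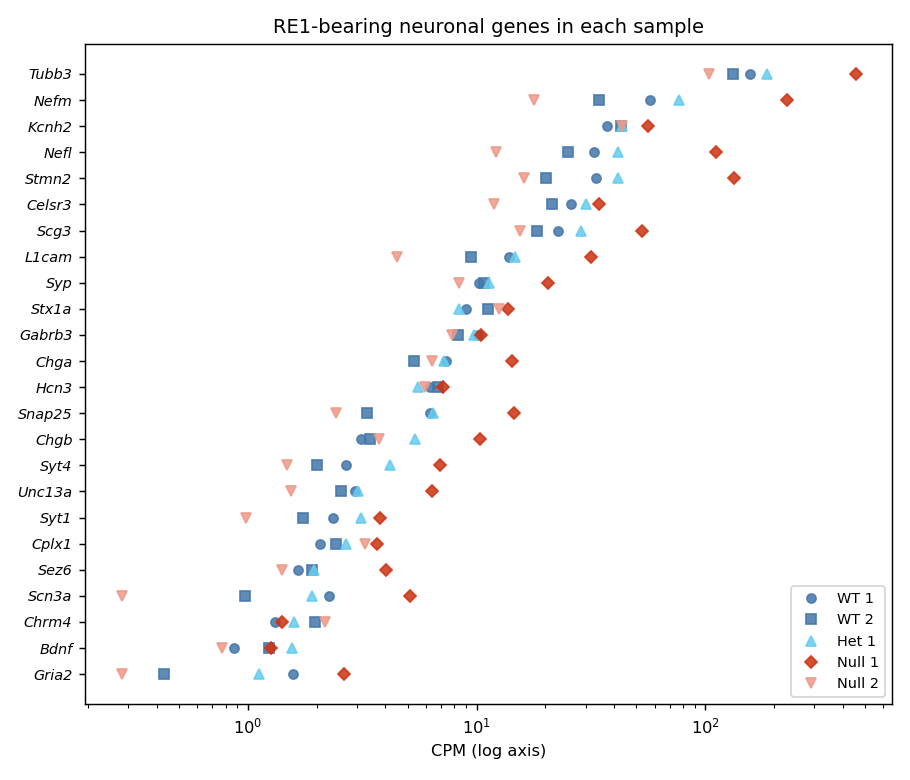
CPM (log axis) of the 24 tested neuronal genes with RE1 elements, 1 row a gene and 1 symbol a sample, for wild type (WT), heterozygote (Het) and EpoR-null (Null) samples. In EpoR-null replicate 1, 22 genes lie to the right of all controls, while in EpoR-null replicate 2, 17 lie to the left of them.

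The genes whose levels followed that of Rest most closely over the 5 samples were Mau2, Slc26a2, Uba6, Nufip2 and Parg, with Pearson correlations of log2 CPM of 0.9995, 0.9994, 0.9992, 0.9991 and 0.9991. With 5 points that mainly separate 2 groups, such values are a description of likeness among 12703 genes. Uba6, an enzyme that activates ubiquitin, was 69.6, 62.9 and 66.6 CPM in the controls, and 36.1 and 28.5 CPM in the EpoR-null samples (log2 fold change -1.04, FDR = 3.58e-06 by the exact test of edgeR). Slc26a2, a sulfate transporter gene, averaged 11.1 ± 0.74 CPM over controls against 4.47 ± 1.19 CPM (SD, n = 3 and 2) (log2 fold change -1.32, FDR = 0.00339 by the exact test of edgeR). The other 3 were alike in pattern and not in size, with log2 fold changes from -0.31 for Mau2 to -0.15 for Parg, and did not pass the test. Uba6 (6590 bases) and Slc26a2 (7814 bases) are both in the longest class of transcripts, of which 16% were called lower. The part of length in their changes was not tested. All 5 genes were picked by their likeness to Rest in these same samples, so their calls are no separate evidence.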

How the data were processed

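Neural tube polyA RNA of mouse embryos was sequenced in 5 libraries with single-end reads. Read trimming by the authors used Trimmomatic (0.32), alignment TopHat2 (2.1.0) and counting HTSeq (0.6.1), and the deposited values are raw read counts per gene symbol, without normalization (versions from the submitters' processing notes, which name the mm9 build, whereas the study's methods name hg19). Annotation and strand setting are not given in the sources used here. HTSeq leaves out reads that overlap more than 1 gene. Read depth sets the precision of low genes, and 3 reads are given as the floor.

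Samples were grouped by title. The main test was that of edgeR 4.0.16 in R 4.3.3, with TMM scaling, tagwise dispersions and exactTest, EpoR-null against the 3 controls, following the study's methods, with Benjamini-Hochberg adjustment over the 12703 genes with CPM above 1 in at least 2 samples. Standard errors come from the negative binomial information. Alternatives used the quasi-likelihood and likelihood-ratio tests of edgeR (limma 3.58.1), DESeq2 1.42.0, other scalings and filters, loess offsets on length and GC content (span 0.5), and each sample left out. The steps were tested on simulated data, where the exact test, the likelihood-ratio test and DESeq2 had more false calls than their nominal FDR. Transcript lengths came from GENCODE on GRCm38, matched by symbol for 12586 of the tested genes and all 9 members, and no coordinates were mixed with those of mm9. Promoter sequences are RefSeq's.

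The members and lists were chosen with earlier results of these data known. Named genes are the members, Epor, the called genes of each list (up to 4) or otherwise its 2 most abundant, and the 5 most correlated with Rest. Outside this rule, and with their values known, Msi1, Stx1a, Cplx1 and Kcnh2 are named because they make up small counts. So are Neurog2, which departs from the sum of its list, and Celsr3, Gria2 and Rph3a for their RE1 matches.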

Additional observations from a re-analysis of the deposited data

How the results depend on the processing

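Rest kept its direction under all 18 alternatives (log2 fold change -1.88 to -1.22) and its call under 14. The call was lost with the quasi-likelihood F-test (-1.57), with the heterozygote as a group of its own (-1.59, FDR = 0.314), and with length and GC offsets in the quasi-likelihood F-test without (-1.23, FDR = 0.12) and with the replicate block (-1.22, FDR = 0.143). With each sample left out it was -1.88 to -1.31 and called each time. Rcor1 kept its direction (-1.58 to -0.68) and was called in 8 of 19 settings, the reported one included.

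The number of members called (2) was 0 with the quasi-likelihood F-test, the heterozygote as its own group and both quasi-likelihood fits with offsets, 1 with RLE size factors, library size only or a common dispersion, and 1 to 3 with samples left out. Sin3a was called by DESeq2 (3 members), and Sin3b without EpoR-null replicate 1. Genes called numbered 606, and 0 with the quasi-likelihood F-test (3052 at an unadjusted p under 0.05), 1028 with DESeq2, 257 with a common dispersion, 0 with the heterozygote as its own group (1716 at an unadjusted p under 0.05), 170 with offsets in the likelihood-ratio test, 0 with offsets in the quasi-likelihood F-test without and with the block (1220 and 1260 at an unadjusted p under 0.05), 928 with FDR alone, and 115 (without wild type replicate 1) to 2296 (without EpoR-null replicate 1) with samples left out. Of the listed genes, 1 was called, against 0 with the quasi-likelihood F-test, the heterozygote as its own group or offsets in any test, 4 with DESeq2, 2 with a common dispersion, and 1 to 15 with samples left out (15 without EpoR-null replicate 1 and 9 without EpoR-null replicate 2). Where no value is given, the cause was not tested.

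The replicate numbers are shared by the groups, but no label says what they mark. With the number as a replicate block the quasi-likelihood F-test called 291 genes and 1 member, Rest (-1.54, FDR = 0.041), and the differences between numbers 2 and 1 in wild type and EpoR-null samples correlated over genes with r = 0.427. Of the ratios, those of Rest to its partners kept their sign with each sample left out. The ratio of Hdac2 to Hdac1, whose groups overlapped, was -0.10 without EpoR-null replicate 1 and 0.41 without EpoR-null replicate 2. Depth limits Epor, Rcor3 and the least abundant neuronal genes.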
